A study of Homo sapiens with 8 samples.

Results

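The ERBB receptors and their ligands were followed in LX-2 cells, a human hepatic stellate cell line with a myofibroblastic phenotype, after inhibition of O-GlcNAc transferase (OGT), the enzyme that attaches O-linked N-acetylglucosamine to intracellular proteins. The gene set was defined by name and held 10 of the 16796 genes in the count files: the receptor genes EGFR, ERBB2 and ERBB3, the ligand genes HBEGF, EREG, AREG, BTC, TGFA and NRG1, and ERRFI1, which encodes a cytosolic inhibitor of the receptors. The study asked how protein O-GlcNAcylation bears on the transcriptome of myofibroblastic stellate cells. Control cells received the vehicle DMSO and the other group, called OGTi here, was exposed for 24 h to OSMI-1, an inhibitor of OGT, at a dose of 50 µM. Both groups were grown in DMEM with 5% fetal bovine serum, and neither carried a genetic change introduced by the study. Each group had 4 libraries, numbered 1 to 4, from independent experiments on the same line, so the spread between them covers repeated cultures and not donors.

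ERBB receptors are tyrosine kinases of the plasma membrane that pair on ligand binding and signal to the RAS-ERK and PI3K-AKT cascades. Most of their ligands are made as membrane-anchored precursors, which ADAM metalloproteases cut to release the soluble growth factor. EGFR binds the EGF-type ligands, ERBB3 and ERBB4 bind neuregulins, and ERBB2 has no known ligand of its own and acts as the partner of the others. ERBB3 has a weak kinase and signals mainly through its partners. In liver, EGFR and its ligands are known for their part in hepatocyte regeneration, and stellate cells are the main source of fibrous matrix in scarring.

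The libraries held 24166756 to 28201215 estimated read counts. The first principal component of the most variable genes carried 45.39% of their variance. On it controls lay from -28.3 to -19.3 and OGTi libraries from 19.7 to 26.7, with control replicate 3 the farthest out. At q of 0.05 or lower (q being the adjusted p of a DESeq2 model that kept the replicate number as a block), 46.6% of the 14028 genes with a q were called, 22.7% higher and 24% lower in OGTi. Among genes with a mean normalized count of at least 100, 53.1% were called, and the 2 groups of 4 libraries did not overlap for 38% of the 14895 genes tested. Against that background, 4 of the 9 family genes with a q were called, 2 in each direction. Of the 6 with a mean of at least 100, 4 were called, and 3 of 10 had groups that did not overlap. These shares lie near those of all genes, so the results below are about single genes and not about the family as a set. The median log2 fold change was 0.23 over the 9 family genes that allow one and 0.00 over all genes tested.

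Windows around annotated gene starts, from 250 bases before to 50 after, were taken from RefSeq (assembly GRCh38.p14) and matched 8 of the 10 family genes. ERBB3 and NRG1 were the others. They are shown for the genes whose counts are described below, to set the sequence at the start beside the expression values. Both strands were searched for the AP-1 motif TGANTCA, the CRE motif TGACGTCA, the TEAD motif GGAATG and the CArG box, which occurred in 7.71%, 1.85%, 14% and 1.29% of the 35116 windows of this length. EGFR had an upstream window without a match and a second window at chr7:55109589-55109888, inside an intron of its main transcript, that held 2 AP-1 matches and 1 TEAD match. The ERBB2 window held 1 AP-1 match, which lay in an exon of PGAP3 on the opposite strand. EREG had a TEAD match and AREG a CRE match 65 bases before its start, both outside annotated genes. The windows of HBEGF, ERRFI1, TGFA and BTC held none of the 4 motifs. Outside the 10 genes, EGF had an AP-1 match 17 bases and a TEAD match 12 bases before its start. NRG4 had a TEAD match, and the windows of EPGN, NRG2 and ERBB4 held none of the motifs. Capitals below mark the match, read 5′ to 3′ on the plus strand.
EGFR AP-1, chr7:55109596-55109625: gctttcccatgTGAGTCAttgctagtcaga
EGFR AP-1, chr7:55109692-55109721: gtataaactttTGACTCAcaggacaaattc
EREG TEAD, chr4:74364959-74364988: agacattttttCATTCCtcaaccactactc
AREG CRE, chr4:74445060-74445089: cggccgggcctTGACGTCAtgggctgcggc

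HBEGF and ERRFI1, both called and moving in opposite directions, were compared over the 120 bases before their starts. Capitals mark the GC box GGGCGG on either strand, a motif added after the windows had been seen and present in 45% of all windows. The HBEGF stretch was 80.8% G or C with 3 GC boxes, a pair of which share a base, and the ERRFI1 stretch was 74.2% G or C with 1. Both lie on the minus strand and overlap no annotated gene. A match of letters is a description and not a measured binding site.
HBEGF, chr5:140346604-140346723: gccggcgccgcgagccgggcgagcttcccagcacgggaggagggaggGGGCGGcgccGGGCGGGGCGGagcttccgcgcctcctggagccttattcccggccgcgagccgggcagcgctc
ERRFI1, chr1:8026310-8026429: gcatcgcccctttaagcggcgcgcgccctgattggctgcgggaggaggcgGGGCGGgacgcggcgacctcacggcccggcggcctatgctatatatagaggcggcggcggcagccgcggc

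Among the receptors, ERBB3 transcripts rose in OGTi, while EGFR and ERBB2 did not pass the test. ERBB3 (ENSG00000065361), which maps to GRCh38 chr12:56076799-56103505 on the plus strand, had normalized counts of 212, 182, 101 and 105 in control replicates 1 to 4. In OGTi replicates 1 to 4 the counts were 318, 493, 386 and 339.6. Every OGTi library was above every control library, and the controls fell into a higher pair, replicates 1 and 2, and a lower pair, replicates 3 and 4. Mean counts were 150.2 ± 55.8 in controls and 384 ± 78.0 in OGTi (SD, n = 4), a 2.56-fold difference with a log2 fold change of 1.40 ± 0.20 (SE) and q = 3.516e-11. The log2 ratio within pairs was 0.58 in pair 1, against 1.43, 1.92 and 1.68 in the others, so the pair with the highest control count moved least. In bulk RNA, a changed share of expressing cells and changed RNA per cell cannot be told apart, here and for all genes below.

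EGFR (ENSG00000146648, chr7:55019017-55211628, plus strand), the receptor of HB-EGF, amphiregulin and TGF-alpha, had control counts of 3022, 4116, 5114 and 4869.6 and OGTi counts of 5501, 4255, 5531 and 5407. All 4 pairs were higher in OGTi, yet the groups overlapped, since OGTi replicate 2 lay below control replicates 3 and 4. Means were 4280.3 ± 940.3 in controls and 5174 ± 615 in OGTi, with a log2 fold change of 0.29 ± 0.18, a 95% interval of -0.06 to 0.65 and q = 0.1802. Pair 1 alone had a log2 ratio of 0.86, while the other pairs had 0.05, 0.11 and 0.15. Without pair 1 the fitted value was 0.11, and it passed the threshold without pair 2 (0.38, q = 0.01472) or without pair 4 (0.34, q = 0.03678).

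ERBB2 (ENSG00000141736, chr17:39687914-39730426, plus strand), the shared partner receptor, was the steadiest of the receptor genes. Its control counts were 4030.3, 3906, 3889 and 3879.5, a coefficient of variation of 1.79%, and its OGTi counts were 3549, 3920.4, 3828 and 3526. OGTi replicates 1, 3 and 4 lay below all controls and OGTi replicate 2 within them. The log2 fold change was -0.08 ± 0.07, with a 95% interval of -0.23 to 0.06 and q = 0.3528. Within groups EGFR and ERBB3 did not order the libraries alike. Control replicates 1 and 2 had the highest ERBB3 and the lowest EGFR counts, and OGTi replicate 2 had the highest ERBB3 and the lowest EGFR count of its group.

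**Figure D1:**
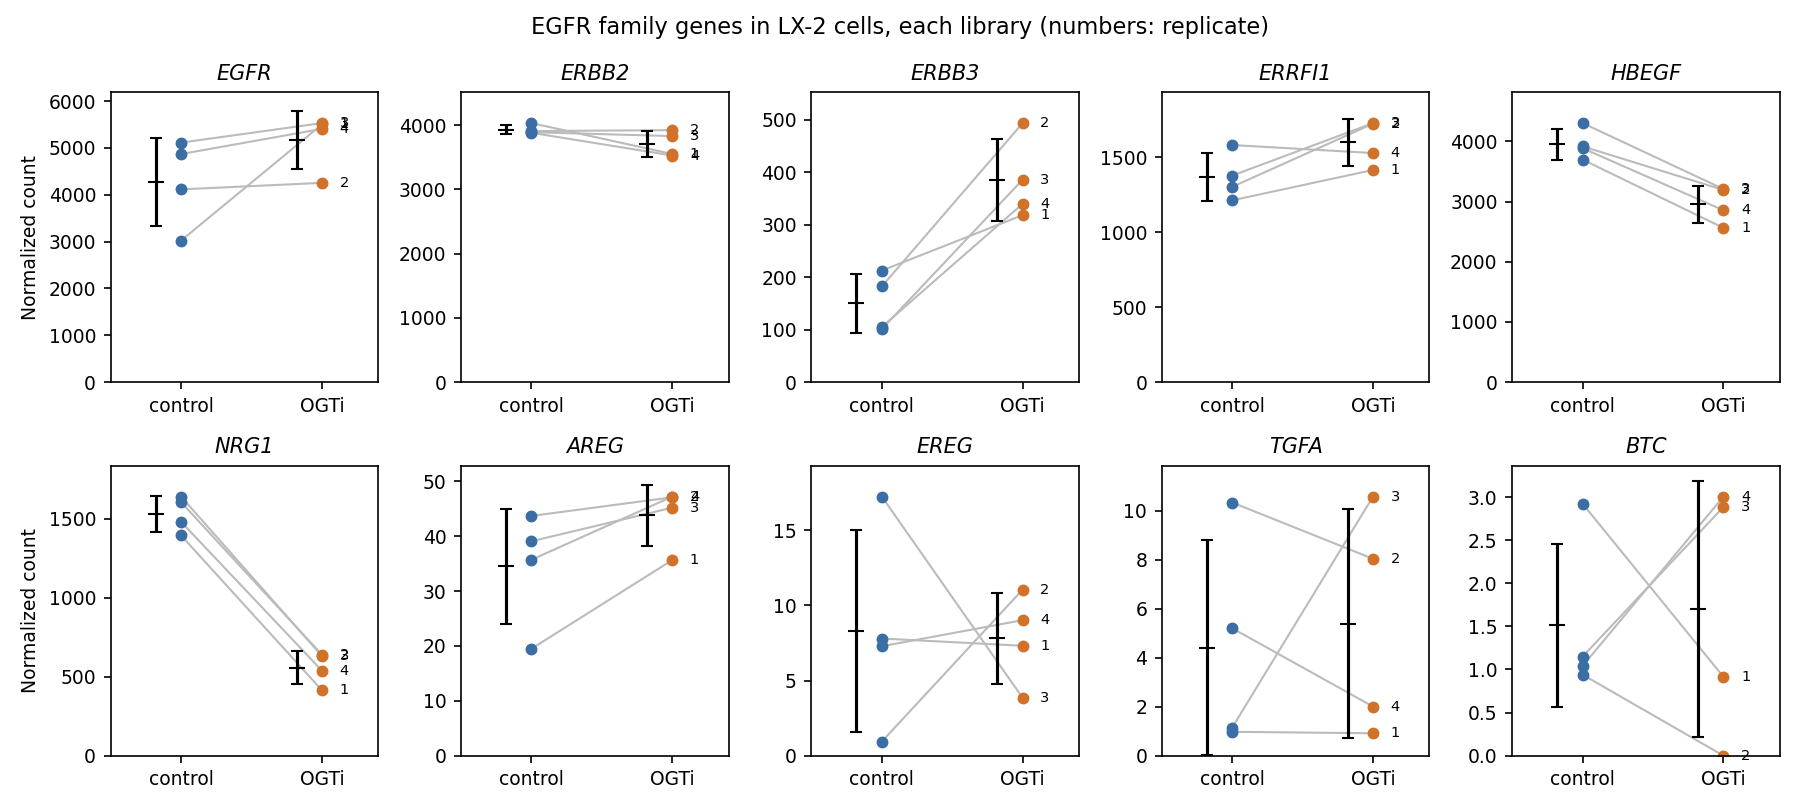
Normalized counts (y axis, from 0, a scale of its own for each gene) of the 10 family genes in the control and OGTi libraries (x axis); points are libraries, grey lines join libraries with the same replicate number, and black bars are mean ± SD (n = 4). The groups are apart for ERBB3, HBEGF and NRG1, and overlap for the other genes.

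Of HBEGF and NRG1, the called ligand genes of the set, NRG1 had the larger decrease. NRG1 encodes neuregulin 1, which binds ERBB3 and ERBB4, and the counts sum all its isoforms. The gene (ENSG00000157168) spans bases 31639222 to 32855666 of chromosome 8 on the plus strand. Controls had normalized counts of 1393, 1604, 1639 and 1479, and OGTi libraries had 414, 639, 631 and 538. The lowest control library was above the highest OGTi library, and replicate 1 was the lowest of its group in both. Means were 1529 ± 113 and 555 ± 105, 2.75-fold lower in OGTi, and the log2 fold change was -1.48 ± 0.10 with q = 3.192e-44. Within pairs the log2 ratio ran from -1.75 in pair 1 to -1.33 in pair 2.

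HBEGF, which encodes heparin-binding EGF-like growth factor, a ligand of EGFR and ERBB4, fell less than NRG1. HBEGF (ENSG00000113070, chr5:140332843-140346603, minus strand, 6 exons in its main transcript) had control counts of 3699, 3919, 4306 and 3888 and OGTi counts of 2564, 3194, 3210.1 and 2857. All OGTi libraries lay below all controls. The means, 3953 ± 255 and 2956 ± 308, differed 1.34-fold, with a log2 fold change of -0.42 ± 0.07 and q = 7.103e-08. Pair ratios on the log2 scale were -0.53, -0.30, -0.42 and -0.44. As for NRG1, pair 1 had the largest decrease and pair 2 the smallest.

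AREG, which encodes amphiregulin, an EGFR ligand released by ADAM17, was measured at low counts. The gene (ENSG00000109321) lies at chr4:74445136-74455005 on the plus strand. Controls had 19.5, 35.7, 39.1 and 43.7 normalized counts and OGTi libraries 35.6, 47.2, 45.2 and 47.1. Although all 4 pairs were higher in OGTi, the groups overlapped, and the log2 fold change of 0.39 ± 0.37 (95% interval -0.33 to 1.10, q = 0.4092) did not pass. Control replicate 1 was the lowest library, and pair 1 gave the largest ratio, 0.84 on the log2 scale, as it did for EGFR.

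EREG, TGFA and BTC, the genes of epiregulin, transforming growth factor alpha and betacellulin, were near the limit of detection. EREG had 8, 1, 15 and 7 estimated counts in controls and 7.88, 10.98, 4 and 9 in OGTi, a total of 62.86 over the 8 libraries. Its normalized means were 8.31 ± 6.72 and 7.81 ± 3.05, and the fitted log2 change of 0.20 ± 0.89 (95% interval -1.55 to 1.95, q = 0.8825) has the opposite sign to the means. TGFA had 1, 11, 1 and 5 counts in controls and 1, 8, 11 and 2 in OGTi, with 4 of the 8 libraries at 3 counts or fewer. The fitted change of TGFA was 0.23 ± 1.11, with a 95% interval of -1.95 to 2.41 and q = 0.8905. BTC had 3, 1, 1 and 1 counts in controls and 1, 0, 3 and 3 in OGTi, all at or under 3, a level at which no fold is given. Differences in these 3 genes were not detectable at this depth, and the intervals of EREG and TGFA leave room for changes larger than those of ERBB3 and NRG1. EREG, AREG and BTC lie beside EPGN, the epigen gene, within 486.1 kb of chromosome 4 (chr4:74308470-74794523), and none of the 4 was called.

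ERRFI1 encodes MIG6, a feedback inhibitor that binds the kinase domains of the receptors. It lies at chr1:8004404-8026309 on the minus strand (ENSG00000116285). Its control counts were 1214, 1304, 1379 and 1583, and its OGTi counts 1416, 1726, 1729.5 and 1529.6. Pairs 1, 2 and 3 were higher in OGTi, with log2 ratios of 0.22, 0.40 and 0.33, while pair 4 was at -0.05, and the groups overlapped. ERRFI1 rose from 1369.9 ± 157 to 1600.3 ± 154, a log2 fold change of 0.23 ± 0.10 with q = 0.04046. That call was lost without the replicate block (0.22, q = 0.07872) and without pair 1 (0.23, q = 0.09225), pair 2 (0.17, q = 0.277) or pair 3 (0.19, q = 0.2033).

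**Figure D2:**
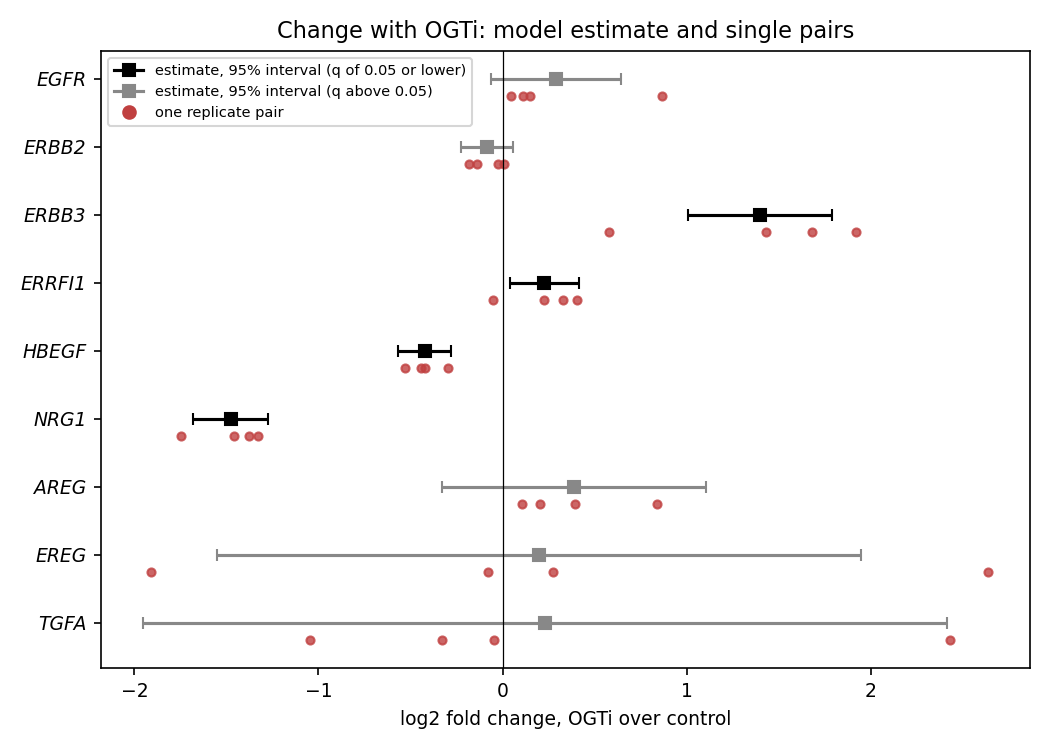
Log2 fold change, OGTi over control (x axis), of 9 family genes (y axis): squares and bars are the model estimate and its 95% interval, black where q was 0.05 or lower and grey otherwise, and red points below are the 4 replicate pairs. ERBB3 lies at 1.40, NRG1 at -1.48 and HBEGF at -0.42 with all pairs on one side of 0, while 1 ERRFI1 pair lies below 0 and the EREG and TGFA intervals reach beyond -1.5 and 1.9.

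Outside the 10 genes, the count files held EGF, EPGN, NRG2, NRG4 and ERBB4 of the same family. EGF, the founding ligand of EGFR, had 39, 23, 86 and 51 counts in controls and 0, 0, 0 and 3 in OGTi. It was lower in OGTi in all 4 pairs (q = 6.598e-10), with 199 control counts against 3, a depth-scaled ratio of 69.8 with an exact 95% interval of 23.5 to 341 that covers counting error only. NRG2, a neuregulin, rose from 49.6 ± 11 to 90.2 ± 30.5 normalized counts, with a log2 fold change of 0.83 ± 0.29, q = 0.009542 and all 4 pairs higher. The NRG2 groups overlapped, since control replicate 2, at 64.8, lay above OGTi replicate 3, at 56.7. NRG1 and NRG2 thus moved in opposite directions, with groups apart only for NRG1. EPGN (-0.90 ± 0.68, q = 0.2855) and NRG4 (0.10 ± 0.31, q = 0.8202), a further neuregulin, did not pass. ERBB4, the remaining receptor of the family, had a total of 1 count over the 8 libraries and was not tested.

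To order the genes by abundance, normalized counts were divided by the length of the main (MANE Select) transcript and rescaled in each library so that the 15596 genes with such a length sum to 1000000. Levels below are on this scale, and where coding length is used instead it is named. In controls HBEGF was the most abundant at 169 ± 12.7, higher than 92.75% of those genes, followed by ERBB2 at 86.6 ± 1.60. ERRFI1 (44.5 ± 4.87) and EGFR (43.5 ± 9.72) came next with overlapping libraries. NRG1 followed at 12.8 ± 1.13, then AREG (2.81 ± 0.859) and ERBB3 (2.69 ± 0.994), which overlapped each other. EREG (0.181), TGFA (0.108) and BTC (0.0571) formed the bottom of the order and their neighbours overlapped.

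In OGTi the order of ERBB3 and NRG1 was exchanged on the transcript-length scale. ERBB3 stood at 7.10 ± 1.27 and NRG1 at 4.82 ± 0.869, with libraries that did not overlap, and NRG1 now overlapped AREG at 3.69 ± 0.480. HBEGF (130.4 ± 12.6) and ERBB2 (84.6 ± 3.11) kept the top places, ahead of EGFR (54.5 ± 7.50) and ERRFI1 (53.7 ± 4.67). With coding length in place of transcript length the exchange was not seen, since NRG1 has 11983 transcript bases but 1920 coding bases. On the coding scale NRG1 was at 34.4 and ERBB3 at 1.61 in controls, and NRG1 was at 13.2 and ERBB3 at 4.34 in OGTi.

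**Figure D3:**
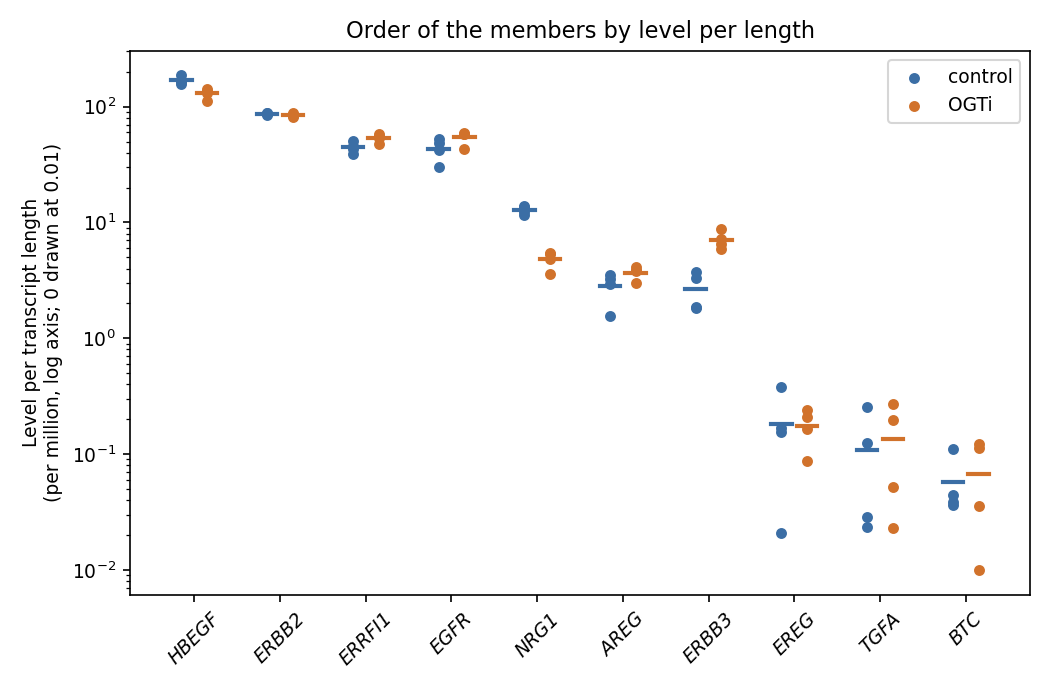
Level per transcript length (y axis, parts of a sum of 1000000, log axis) of the 10 family genes (x axis, ordered by their control mean): points are libraries, horizontal lines group means, blue control and orange OGTi. NRG1 lies at 12.8 in controls and 4.82 in OGTi, and ERBB3 at 2.69 and 7.10.

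The same levels give the make-up of the ligand and receptor transcripts. The 6 ligand genes summed to 184.6 ± 14.3 in controls (169 to 203) and 139.3 ± 14 in OGTi (119.7 to 152). HBEGF held 91.4% of that sum in controls and 93.6% in OGTi, NRG1 6.95% and 3.44%, and AREG 1.51% and 2.65%. The sum over the 3 receptor genes was 132.8 ± 7.99 in controls (122.0 to 141.2) and 146.1 ± 6.10 in OGTi (138.7 to 153.0), with overlapping ranges. Within this sum ERBB3 went from 2.06% ± 0.871 to 4.88% ± 1.03, EGFR from 32.5% ± 5.60 to 37.2% ± 4.08 and ERBB2 from 65.4% ± 4.76 to 57.9% ± 3.06. The control and OGTi ranges overlapped for the EGFR and ERBB2 shares and were apart for the ERBB3 share. By coding length EGFR and not ERBB2 had the larger mean share in controls, at 51.7% ± 6.61 against 46.6% ± 5.82. The ranges of these shares over the control libraries overlapped, at 42.6% to 57.1% for EGFR and 41.9% to 54.7% for ERBB2. These shares are descriptions, without a test.

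Genes that act on the ligands and receptors, or below them, were counted in 5 lists of 109 measured genes. Of these, 61 were called, 29 higher and 32 lower in OGTi, with a median log2 fold change of 0.03. The share called lies near that of all genes given above (46.6%, or 53.1% at a mean of at least 100), and the counts of each list below are to be read against the same shares and against 22.7% higher and 24% lower. No list was tested as a set. The ligand shedding list covers the proteases that release the ligands, their chaperones and inhibitors. Of its 14 genes, 5 rose, 6 fell and 3 did not pass, with a median of 0.05. Of all genes 46.6% were called, or 53.1% of those with a mean of at least 100. ADAM19, a protease known to process neuregulins, fell from 1343 ± 147 to 601 ± 57.6 normalized counts (log2 fold change -1.16 ± 0.10, q = 4.416e-29). ADAM9, a further metalloprotease, fell from 8340.0 to 5261 (-0.67, q = 4.917e-21). TIMP3, an inhibitor of ADAM17, fell from 12274 to 7944 (-0.63, q = 1.04e-15). ADAM17 and ADAM10, the main sheddases of the EGFR ligands and named here after their values were seen, moved in opposite directions, at 0.44 ± 0.10 (q = 0.0001061) and -0.28 ± 0.08 (q = 0.002265).

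Receptor control, the list of ubiquitin ligases, phosphatases, endocytic adaptors and scaffolds, had 25 tested genes, of which 4 rose, 3 fell and 18 did not pass, with a median of 0.03. That is a lower share called than the 46.6% of all genes, or the 53.1% of those with a mean of at least 100. ERBIN, a scaffold protein that binds ERBB2, had control counts of 6056, 7394, 9578 and 7690.4 and OGTi counts of 3746, 3832, 4433 and 4549, with no overlap (log2 fold change -0.88, q = 1.617e-25). The phosphatase gene PTPRJ fell by 0.61 on the log2 scale (q = 3.903e-08) and the phosphatase gene PTPRK rose by 0.47 (q = 5.223e-08). ERBB2 itself did not pass the test beside these changes.

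The adaptors and RAS-ERK cascade list had 21 genes, of which 3 rose, 9 fell and 9 did not pass, with a median of -0.01, a share called near the 53.1% of all genes with a mean of at least 100. Among the decreases were those of NRAS, a small GTPase gene (-0.78, q = 3.851e-22), and the kinase gene ARAF (-0.55, q = 3.005e-12). In the list of the PI3K-AKT, PLC-gamma and STAT branch, 2 of 21 rose, 9 fell and 10 did not pass, with a median of -0.12, again near the 53.1%. The 2 that rose were PIK3R3, from 446 to 961 normalized counts (1.11, q = 4.962e-24), and PIK3R1, from 488 to 1046 (1.10, q = 1.036e-22), both regulatory subunits of PI3K. STAT5B, a transcription factor, fell from 2134 to 1146 (-0.90, q = 2.02e-25).

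ERK-responsive genes, those that ERK signalling is known to induce, showed the highest median of the 5 lists, 0.51. Of the 28 genes, 15 rose, 5 fell and 8 did not pass, where 22.7% of all genes were called higher and 24% lower. The list was chosen with earlier results of these data known, so these values describe it and are not a test. DUSP6, a phosphatase of ERK, had control counts of 379, 687, 475 and 627 and OGTi counts of 2251, 2793, 2040.0 and 1877, with a log2 fold change of 2.07 ± 0.13 and q = 2.37e-58. DUSP5, a nuclear ERK phosphatase, rose by 1.47 (q = 1.803e-35), and SPRY4, a feedback inhibitor of receptor tyrosine kinase signalling, rose from 776 to 2000.4 (1.38, q = 6.451e-34). In each of these 3 genes every OGTi library was above every control library. Not all members moved this way: EGR1, an immediate early gene, and LIF, a cytokine, named after their values were seen, fell by 1.07 (q = 1.067e-05) and 1.50 (q = 3.305e-08) on the log2 scale. ERRFI1, a further feedback inhibitor, had the smaller value of 0.23 given above.

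**Figure D4:**
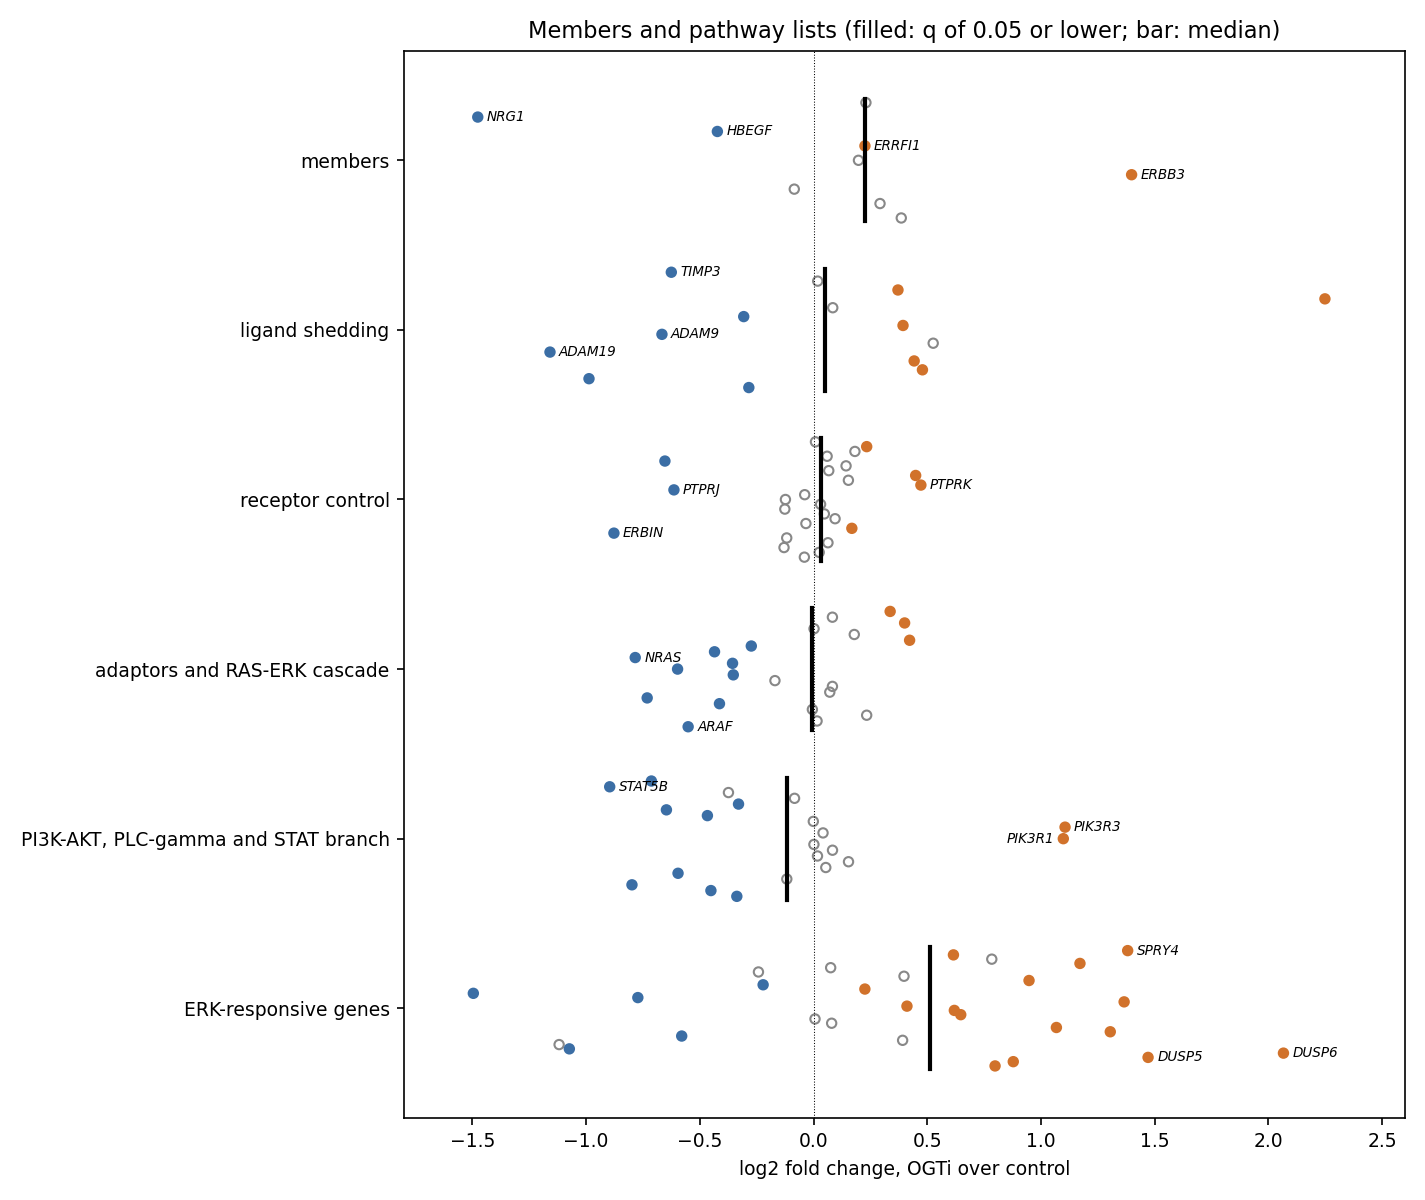
Log2 fold change, OGTi over control (x axis), of the family genes (members, without BTC) and of each gene of the 5 pathway lists (y axis): filled points had q of 0.05 or lower, orange higher and blue lower, open points did not pass, and bars are medians. The ERK-responsive list has its median at 0.51, the PI3K-AKT, PLC-gamma and STAT branch at -0.12. All lists were chosen with earlier results of these data known.

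The cell identity was checked on marker lists. Of the 12 stellate cell markers 10 had at least 10 counts in every library (COL1A1, COL1A2, COL3A1, PDGFRB, VIM, ACTA2, TAGLN, RGS5, TIMP1 and SPARC), while DES and LRAT, both marks of stellate cells, reached at most 4 and 5 counts. The summed stellate markers ran from 233800 to 273500 normalized counts in controls and from 174600 to 206100 in OGTi. The mean of COL1A1 was 84778 in controls and 43931 in OGTi and that of TAGLN 29724 and 14023, while VIM had 95086 and 89632 and TIMP1 was higher in OGTi, at 17868 against 12613. In the same order of groups, COL3A1 had means of 5102.5 and 884, ACTA2 717 and 200, and COL1A2 7891 and 2991. PDGFRB had 2280 and 1222, SPARC 22910 and 15840, and RGS5 68.1 and 60.3. Hepatocyte markers (2 of 7 in the files, summed 19.5 to 74.0 and 26.0 to 74.0) were led by SERPINA1. Epithelial markers (5 of 6, summed 11440 to 13420 and 9078 to 10580) were mostly KRT8, with means of 11263 and 8562. SOX9 had 834 and 1045 and KRT7 111 and 53.8, while KRT19 and CDH1 reached at most 3 and 2 counts. Endothelial markers (5 of 5) summed to 75.0 to 98.6 in controls, where CDH5 led with a mean of 37.3, and to 19.0 to 45.7 in OGTi, where VWF led with 19.5 and CDH5 had 3.86. Leukocyte markers (5 of 6) went from 2513 to 4093 up to 5645 to 9409, nearly all CD68, and PTPRC, their defining gene, reached at most 10 counts. CD14 had means of 61.8 and 68.1, LYZ 13.3 and 18.6, and CD79A 3.89 and 11.1. Stellate, epithelial, endothelial and leukocyte sums moved with the groups, as did ERBB3, HBEGF and NRG1, and their part in these results was not tested.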

How the data were processed

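Polyadenylated RNA of 8 LX-2 libraries was sequenced on a DNBSEQ instrument. The deposited files hold expected counts per gene, estimated counts that need not be whole, which the authors made by aligning reads to hg38 with Bowtie2 2.3.5.1 and counting with RSEM 1.3.1. The authors' own comparison table (DESeq2 1.36.0 fold changes and p-values) was not used. Between 12.94% and 16.32% of values per library were fractional and were rounded.

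Genes with a total of at least 10 counts (14895) entered DESeq2 1.42.0 (R 4.3.3; Wald test, replicate number plus treatment, Benjamini-Hochberg q over all genes), after the study's methods. Same-numbered libraries deviated together (r = 0.352, 0.273, 0.126 and 0.218 over 12487 genes). However, control 3 correlated more with OGTi 4 (0.246), and OGTi 3 more with control 4 (0.147), than with each other. Pair ratios used a pseudocount of 1. edgeR 4.0.16, other filters, scaling, no block and leaving out each replicate were alternatives. The fits were tested on simulated data. Positions and lengths came from GENCODE on GRCh38, the assembly of hg38, and promoter sequences from RefSeq. Genes named were all family genes, the 3 called genes of each pathway list with the largest absolute Wald statistic, the stellate markers and the most abundant gene of each other marker list; 1 gene that this rule names is not reported here. ADAM10, ADAM17, EGR1, LIF, KRT7, KRT19, SOX9, CDH1, PTPRC, CD14, LYZ and CD79A were named outside the rule after their values were seen. Genes and lists were chosen with earlier results of these data known.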

Additional observations from a re-analysis of the deposited data

Results flagged for a closer look

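In 59 groups of 4 libraries, 4 held a library far from the other 3, by a gap over the whole range above Dixon's critical value at the 95% level; chance gives about 1 in 20. EGFR in OGTi replicate 2 was at 4255 normalized counts, with the others at 5407 to 5531 (gap over range 0.903). BTC in control replicate 1 was at 2.92, with the others at 0.939 to 1.15 (0.894), a difference of 3 counts against 1. ERBB4 in control replicate 2 was at 0.939, a single count, with none in the others. EGF in OGTi replicate 4 was at 3.01, or 3 counts, with none in the others.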

How the results depend on the processing

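Of 95 alternative values of the family genes' log2 fold changes that had a q, as did the reported value, 87 kept their side of the threshold, 3 gained a call, 5 lost it and none that was called turned its sign. A further 9, of BTC and TGFA, had no such q. ERBB3 (1.23 to 1.68), HBEGF (-0.46 to -0.39) and NRG1 (-1.53 to -1.39) stayed called under all 11 alternatives. ERRFI1 stayed called under 6 of 11. Besides the losses given above, it was not called by edgeR without the block (0.23, q = 0.08007). EGFR was called by edgeR with the replicate block (0.29, q = 0.0206) and without replicate 2 or 4, and q ran from 0.01472 to 0.2795. The number of called family genes was 4, with 5 by edgeR with the block, 3 with no replicate block, 3 by edgeR with no block and 3 to 5 when each replicate was left out. Of the pathway genes 61 were called, with 61 with no replicate block, 58 by edgeR with no block and 56 to 63 when each replicate was left out. In DESeq2 the block changed the call of no family gene other than ERRFI1. By edgeR the EGFR call was also lost without the block (0.28, q = 0.129). Of neighbouring genes in the control order by level, 5 pairs were apart by transcript length and 3 by coding length, a change set by the lengths themselves. EREG, TGFA and BTC were dropped by the stricter filter of 10 counts in 4 libraries, and the fitted values of EREG and TGFA ran from -0.62 to 1.01 and from -0.65 to 0.85. Depth limits EREG, TGFA, BTC and ERBB4, and the intervals of EREG and TGFA span the change seen in ERBB3.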
